A study of Homo sapiens with 10 samples.

Results

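The BCL2 family holds the proteins that decide whether the outer membrane of the mitochondrion stays closed or is opened during cell death. Transcripts of 10 of its genes were followed in 2 human leukaemia cell lines treated with the agent JOA. The 10 genes were taken by symbol from a named list: the survival genes BCL2, BCL2L1 and MCL1, the pore-forming effectors BAX and BAK1, and the BH3-only genes BBC3, PMAIP1, BCL2L11, BID and BAD. All 10 were found among the 21961 genes of the NB4 table, where they had 78 transcripts, and 9 were found among the 28946 rows and genes of the Kasumi-1 table. BAX was not analysed in Kasumi-1. The rule reads no measured value, although the list was proposed with earlier results of these data known.

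Kasumi-1 is an acute myeloid leukaemia line with the RUNX1-RUNX1T1 fusion, and NB4 is an acute promyelocytic leukaemia line with the PML-RARA fusion. The groups were Kasumi-1 given 1 µM JOA (3 libraries), Kasumi-1 given control (3 libraries), NB4 given 1 µM JOA (2 libraries) and NB4 given control (2 libraries), all for 48 hours, with what the control cells received not described further. The source label of the treated NB4 libraries names I13, whereas the other labels of the same libraries give JOA. Each line is a single culture model, and no label says that replicates came from separate cultures, so every p-value measures only the spread between these libraries, which may be technical.

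Survival members of the family hold the effectors and the BH3-only proteins in a groove on their surface. BH3-only proteins carry stress signals: they occupy that groove or act on the effectors directly. Free BAX and BAK1 assemble into pores through which cytochrome c leaves the mitochondrion, which starts the caspase cascade. Myeloid leukaemia cells are known to lean on BCL2 and MCL1, and drugs that fill the groove are used against them.

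The short stretch that all of these proteins share is the BH3 segment, and it is shown here because several transcripts described further on lack it. Each line gives 39 coding bases (13 codons) of the member's most abundant NB4 transcript with that segment, 5′ to 3′ on the sense strand, from the GENCODE transcripts of GRCh38. Capitals mark the codon for the conserved leucine and the codons for the small residue (glycine, alanine or serine) and aspartate that close the core.
BCL2: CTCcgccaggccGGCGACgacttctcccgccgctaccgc
BCL2L1: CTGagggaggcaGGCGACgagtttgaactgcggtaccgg
MCL1: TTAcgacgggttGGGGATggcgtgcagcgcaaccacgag
BAX: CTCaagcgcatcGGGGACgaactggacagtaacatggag
BAK1: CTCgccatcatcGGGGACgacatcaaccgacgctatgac
BBC3: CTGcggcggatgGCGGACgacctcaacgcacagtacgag
PMAIP1: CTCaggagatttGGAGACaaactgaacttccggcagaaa
BCL2L11: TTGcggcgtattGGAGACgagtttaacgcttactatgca
BID: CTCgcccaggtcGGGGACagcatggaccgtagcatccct
BAD: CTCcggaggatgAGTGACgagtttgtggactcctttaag

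Leucine, any 3 residues, the small residue and aspartate make a loose pattern of 6 residues, and a match stood in the longest coding sequence of 6943 of the 19669 coding genes searched (35.3%), so a match alone does not make a BH3 protein. In 8 members the small residue was glycine, while BBC3 had alanine and BAD had serine in the transcript shown. On GRCh38 the stretches of the survival genes lay on the minus strand, at chr18:63318340-63318378 for BCL2, chr20:31721913-31721951 for BCL2L1 and chr1:150578856-150578894 for MCL1. Those of the effectors lay at chr19:48955787-48955825 on the plus strand for BAX and at chr6:33575378-33575416 on the minus strand for BAK1. Among the BH3-only genes, PMAIP1 (chr18:59902673-59902711) and BCL2L11 (chr2:111150103-111150141) are on the plus strand. BBC3 (chr19:47226570-47226608), BID (chr22:17739406-17739444) and BAD (chr11:64271613-64271651) are on the minus strand. Every stretch lay within 1 coding exon.

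Levels in Kasumi-1 are FPKM (fragments per kilobase of transcript, scaled to library size) and levels in NB4 are TPM (transcript levels that sum to a fixed total per library), so levels can be ordered within a line but not compared between lines. Within each row, Kasumi-1 FPKM values multiplied by relative library depth were whole multiples of 1 step. This gave back 16365709 to 17906578 reads per library. TPM values hold no trace of sequencing depth, which is therefore unknown for NB4. Genes were tested on log2(value + 1) with limma, and a call required a Benjamini-Hochberg adjusted p under 0.05 over all features tested. All 10 libraries were bulk RNA, in which fewer cells of a kind and less RNA per cell cannot be told apart. Markers of the labelled myeloid type were present, with MPO at 5289 to 5856 FPKM in JOA and 5371 to 6096 FPKM in control libraries of Kasumi-1. In NB4 the 8 myeloid markers together were lower with JOA, at 5224 to 6599 TPM against 8808 to 8931 TPM in control. The 3 T cell markers summed to 32.1 and 47.8 TPM with JOA and 26.4 and 27.8 TPM in control, nearly all of it CD3D with CD3E under 0.1 TPM. The 4 epithelial markers, led by KRT18, summed to 53.5 and 54.8 TPM with JOA and 38.4 and 39.1 TPM in control. The part of these markers in the NB4 values below was not tested. In Kasumi-1 the epithelial marker EPCAM lay at 33.1 to 43.3 FPKM with JOA and 35.5 to 44.4 FPKM in control, and was lower with JOA in 3 of 3 pairs. The 3 erythroid markers together and the 3 fibroblast markers together stayed under 1 TPM in every NB4 library.

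No BCL2 family gene passed the test between JOA and control libraries in either line when each line was fitted without pairs. MCL1, the short-lived survival protein that blocks BAK1, was the most abundant of the members analysed in Kasumi-1, where BAX was not. BID, the BH3-only protein that caspase-8 cuts, was the most abundant in NB4. The lowest adjusted p was 0.303 in Kasumi-1 (BCL2) and 0.551 in NB4 (BAD) with limma. The fit called 0 of 12101 features in Kasumi-1 (0.0%), with 1982 at an unadjusted p under 0.05, and limma's voom on the recovered reads called 0 of 14530, with 2291 at an unadjusted p under 0.05. It called 1 of 12941 genes in NB4 (0.00773%). Of the 7 members tested in Kasumi-1, 4 had a positive difference and the median was 0.03 on the log2 scale, beside 61.9% positive and a median of 0.05 over all features. After median-ratio scaling, 1 of the 7 was positive. In NB4, 7 of 10 members had a positive difference with a median of 0.14, beside 66.2% positive and a median of 0.08 over all genes. After median-ratio scaling the NB4 median was 0.05, with 7 of 10 still positive. Over the members, the lowest and highest bounds of the 95% intervals were -0.37 and 0.32 in Kasumi-1 and -0.65 and 0.67 in NB4, all on the log2 scale.

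**Figure D1:**
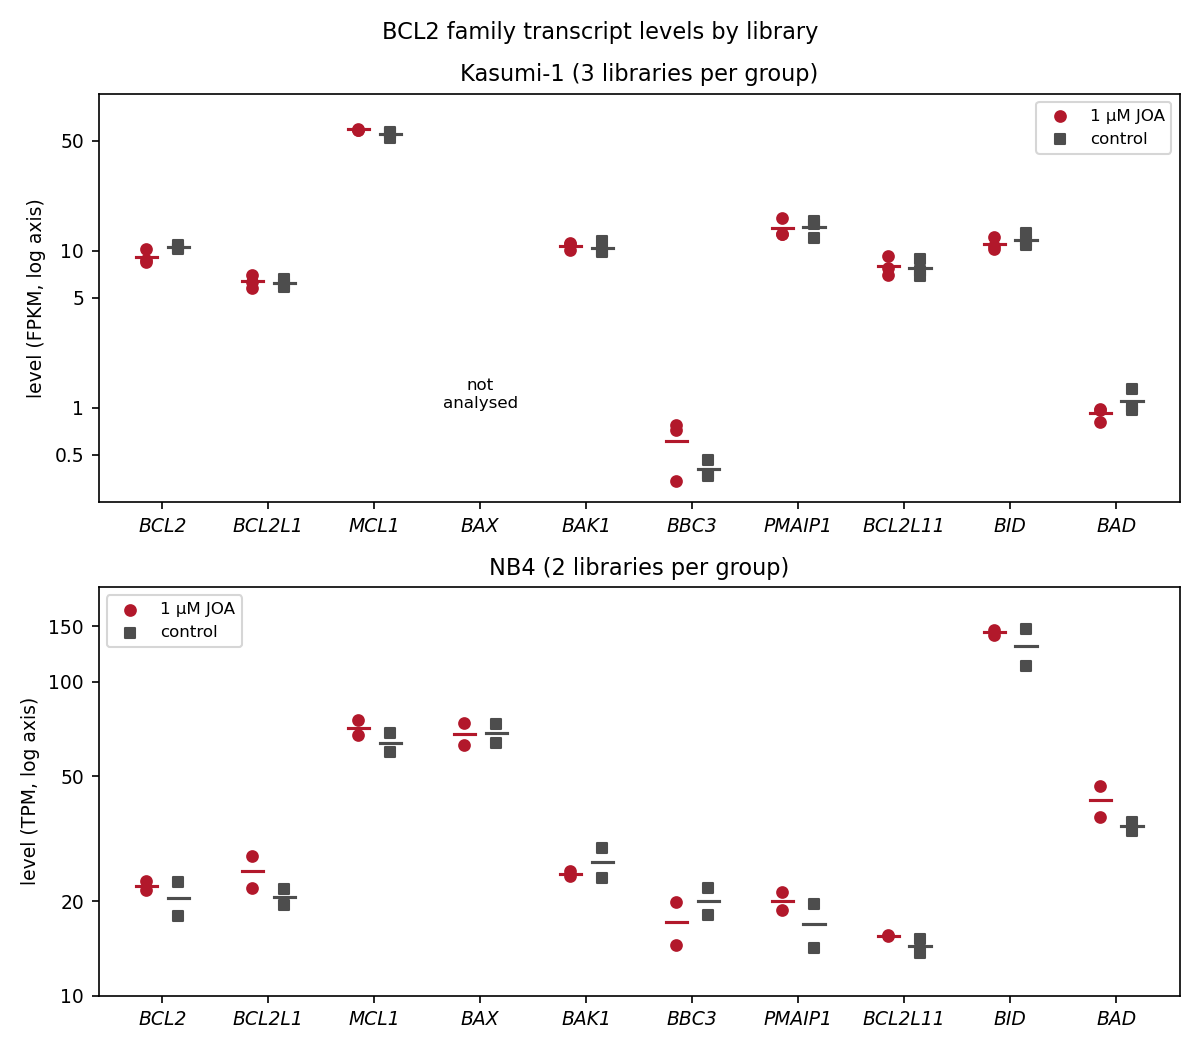
Level of each BCL2 family gene in every library, on a log axis, in FPKM for Kasumi-1 (top) and TPM for NB4 (bottom), with JOA as red circles left of control as grey squares and bars at group means. MCL1 stands above the other members analysed in Kasumi-1 at 52.4 to 59.2 FPKM and BID in NB4 at 112 to 146 TPM. BBC3 and BAD lie near or under 1 FPKM in Kasumi-1.

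**Figure D2:**
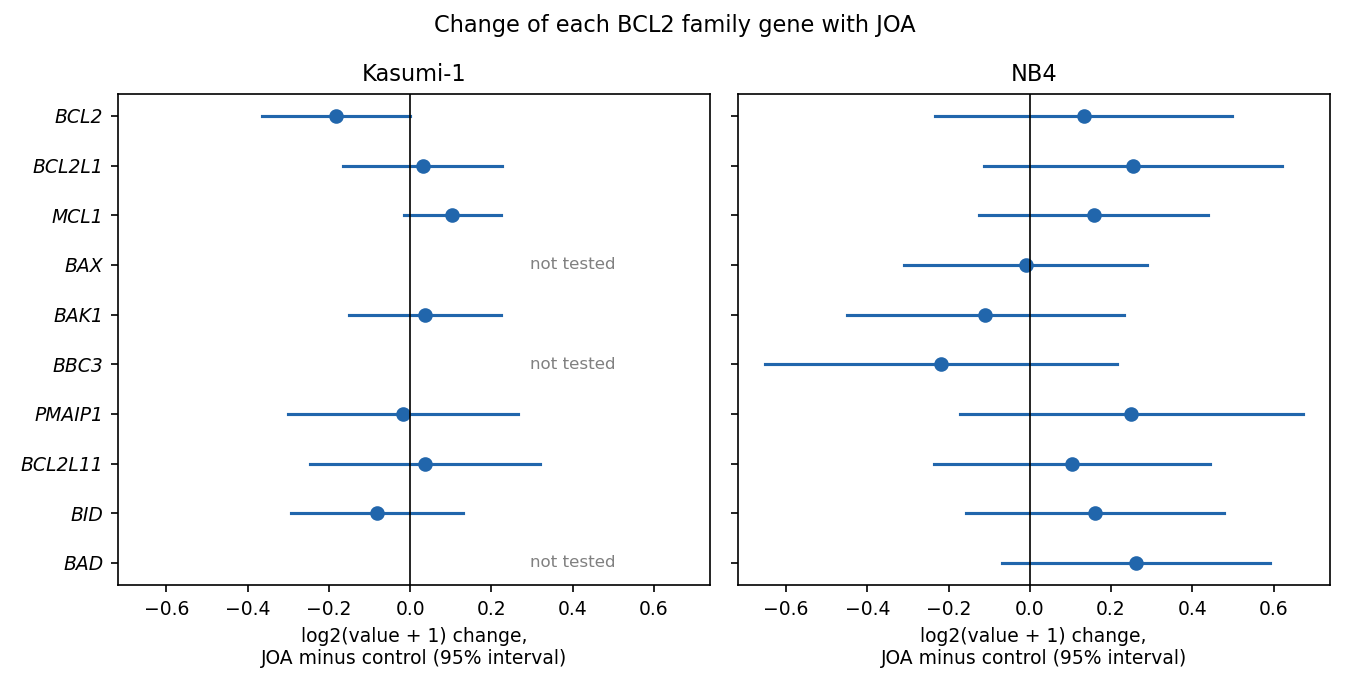
Difference of log2(value + 1) between JOA and control libraries for each BCL2 family gene, as points with 95% intervals from limma, in Kasumi-1 (left, 3 libraries per group) and NB4 (right, 2 per group). The interval of BCL2 in Kasumi-1 ends just under 0, and the intervals of the other members tested cross 0.

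Among the survival genes, BCL2, the founding member and the target of venetoclax, had 8.75, 10.2 and 8.49 FPKM in JOA libraries of Kasumi-1, against 10.3, 10.9 and 10.3 FPKM in control libraries. Every JOA library lay below every control library, although JOA library 2 missed the lowest control by a small margin. Of the 7 members tested, BCL2 and MCL1 had groups that did not overlap, while 23.1% of all features tested did. The difference of BCL2 was -0.18 on the log2 scale (SE 0.08), with an unadjusted p of 0.0489 and an adjusted p of 0.303 with limma.

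Kasumi-1 libraries of the same replicate number deviated together, so the numbers were also fitted as pairs (a replicate block). In that paired fit 985 of 12101 features were called (8.14%), and no member was among them. BCL2 had an adjusted p of 0.0840 and MCL1 of 0.144 with limma in the paired fit. The recovered reads of BCL2 were 1712, 2026 and 1659 with JOA and 2184, 2234 and 2009 in control. On these reads with pairs, limma's voom called 3154 of 14530 features (21.7%), of which those lower with JOA were 5.87% of all tested. BCL2 was the only one of the 9 members tested among them: it fell by 0.20 on the log2 scale (SE 0.05, adjusted p = 0.00488, lower with JOA in 3 of 3 pairs). The marker EPCAM was called lower in the same fit (difference -0.15, adjusted p = 0.0445 with limma's voom), and its part in the BCL2 value was not tested. The BCL2 call rested on which pairs were kept. The adjusted p of BCL2 was 0.0684 without replicate 1, 0.000433 without replicate 2 and 0.0688 without replicate 3. The paired test of reads was chosen after the FPKM results were seen. BCL2 levels in NB4 were 23.1 and 21.6 TPM with JOA and 22.9 and 17.95 TPM in control. There the groups overlapped, and the difference of 0.13 (SE 0.16) had an adjusted p of 0.780 with limma.

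MCL1 had 59.0, 59.2 and 59.0 FPKM in JOA libraries of Kasumi-1 and 55.6, 56.7 and 52.4 FPKM in control libraries. The JOA libraries were nearly equal and all above control. The difference was 0.10 on the log2 scale (SE 0.05, adjusted p = 0.357 with limma), and 0.05 after median-ratio scaling, which takes the median of all features close to 0. In NB4, MCL1 had 67.4 and 75.3 TPM with JOA and 68.3 and 59.6 TPM in control. The groups overlapped through control library 1, and the difference was 0.16 (SE 0.12, adjusted p = 0.659 with limma).

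BCL2L1, whose long form BCL-XL guards mitochondria of many cell types, was the lowest of the 3 survival genes in Kasumi-1. Its JOA libraries held 5.79, 6.30 and 6.98 FPKM and its control libraries 5.85, 6.57 and 6.15 FPKM, with groups that overlapped. In NB4 it had 22.0 and 27.8 TPM with JOA and 19.4 and 21.9 TPM in control. The JOA libraries were above control by a narrow margin, and the difference of 0.25 (SE 0.16) had an adjusted p of 0.600 with limma. The antisense gene ABALON covers 43.0% of BCL2L1 exon bases on the other strand, and whether reads were counted by strand is not given in the sources used here, although the kit keeps strand.

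**Figure D3:**
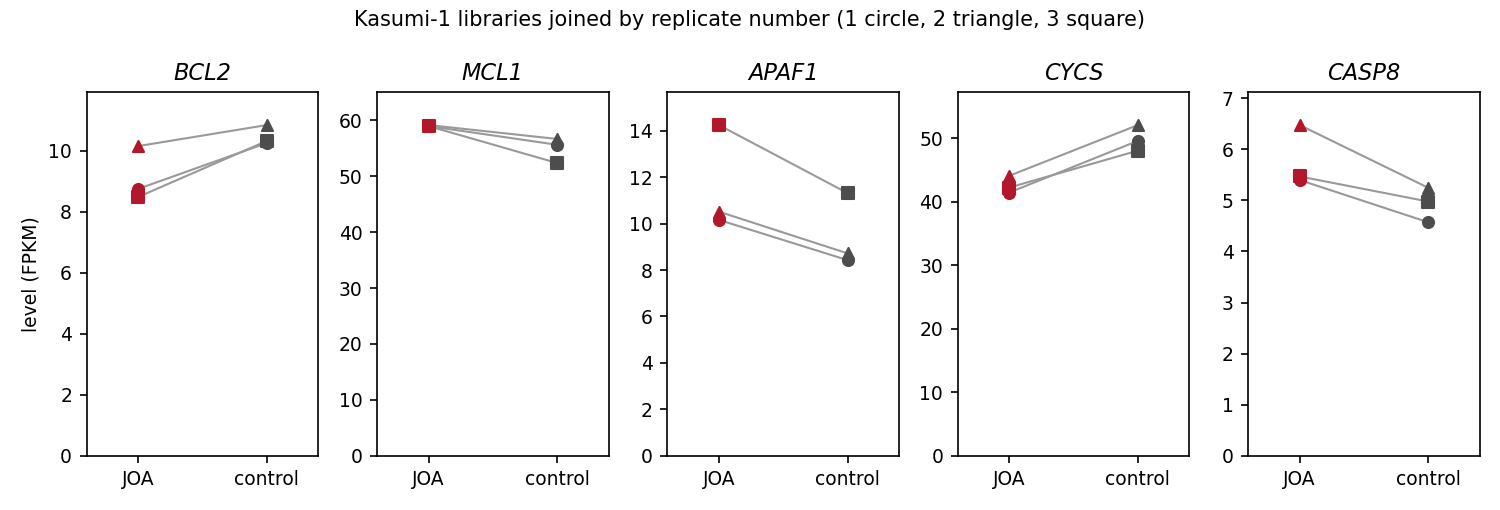
FPKM of 2 survival genes (BCL2, MCL1) and 3 genes acting with the family (APAF1, CYCS, CASP8) in Kasumi-1, JOA left and control right. Each line joins libraries of the same replicate number. BCL2 and CYCS are lower with JOA and MCL1, APAF1 and CASP8 higher in all 3 pairs.

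Of the effectors, BAK1 sits in the mitochondrial membrane of healthy cells, while BAX waits in the cytosol. BAK1 had 10.04, 11.1 and 11.02 FPKM in JOA libraries of Kasumi-1 and 9.92, 9.84 and 11.5 FPKM in control libraries. The groups overlapped, and the difference was 0.04 (SE 0.08, adjusted p = 0.851 with limma). In NB4, BAK1 had 23.98 and 24.9 TPM with JOA, against 23.7 and 29.5 TPM in control. Both JOA libraries fell between the control libraries. BAX had 73.7 and 62.6 TPM in JOA libraries of NB4 and 63.7 and 73.5 TPM in control libraries. The spread between libraries of either group was larger than the difference of -0.01 (SE 0.13, adjusted p = 0.984 with limma). In the NB4 order MCL1 and BAX could not be separated, while BAX stood above BAD, and BAK1 above BCL2, in all 4 libraries.

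The BH3-only genes spanned the widest range of levels. In Kasumi-1, PMAIP1, BID, BAK1, BCL2, BCL2L11 and BCL2L1 followed MCL1 in that order, each overlapping the next. PMAIP1, which encodes NOXA, a protein that binds MCL1, was second among the members analysed in Kasumi-1. It had 16.02, 12.8 and 12.8 FPKM under JOA and 14.7, 15.5 and 11.96 FPKM in control. In NB4 it had 21.4 and 18.7 TPM with JOA and 19.5 and 14.2 TPM in control. The groups overlapped in both lines, with a difference of -0.02 (SE 0.12) in Kasumi-1 and 0.25 (SE 0.18) in NB4. BCL2L11, which encodes BIM, a binder of all survival members, had 7.69, 9.24 and 6.95 FPKM in JOA libraries of Kasumi-1 and 7.44, 8.84 and 6.89 FPKM in control libraries. Library 2 was the high one in both groups and library 3 the low one. In NB4, BCL2L11 had 15.4 and 15.6 TPM with JOA and 15.2 and 13.6 TPM in control, and the difference of 0.10 (SE 0.15) had an adjusted p of 0.815 with limma.

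BID links the death receptors to mitochondria. It had 10.2, 12.2 and 10.8 FPKM in JOA libraries of Kasumi-1 and 11.4, 12.97 and 10.9 FPKM in control libraries. Each JOA library was below the control library of its number, yet the groups overlapped (difference -0.08, SE 0.09, adjusted p = 0.693 with limma). In NB4, BID had 141 and 146 TPM with JOA and 112 and 146 TPM in control, with control library 1 standing apart. BID was above MCL1, the next in the NB4 order, in all 4 libraries.

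BAD, a BH3-only protein held inactive by growth factor signalling, and BBC3, which encodes the p53-induced PUMA, were close to the floor in Kasumi-1 and were not tested there on FPKM, since too few libraries reached 1 FPKM. BBC3 had 0.719, 0.779 and 0.341 FPKM with JOA and 0.365, 0.467 and 0.380 FPKM in control, from 38, 42 and 18 reads with JOA and 21, 26 and 20 reads in control. JOA libraries 1 and 2 were above all controls and JOA library 3 was below them. The summed reads were 98 with JOA (95% exact Poisson interval 79.6 to 119) and 67 in control (51.9 to 85.1), intervals that cover counting error only. BAD had 0.986, 0.967 and 0.811 FPKM with JOA and 1.00, 0.970 and 1.31 FPKM in control, from 79 reads with JOA (62.5 to 98.5) and 97 reads in control (78.7 to 118). Voom with pairs gave BBC3 an adjusted p of 0.139 and BAD of 0.582.

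Both genes stood well above 1 TPM in every NB4 library and were tested there. BAD had 46.6 and 37.2 TPM with JOA and 35.8 and 33.4 TPM in control, and JOA library 1 was the high one. Its difference was 0.26 (SE 0.14, adjusted p = 0.551 with limma). BBC3 had 19.8 and 14.5 TPM with JOA and 18.04 and 21.9 TPM in control, and the groups overlapped. Of the 10 members, BCL2L1, BCL2L11 and BAD had JOA libraries wholly above control in NB4 and none had them wholly below, while 43.5% of all genes tested had groups that did not overlap and 32.5% had JOA wholly above. Exons of GPR137 on the other strand cover 23.7% of BAD exon bases.

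No member's response was called different between the lines. The difference of the responses, Kasumi-1 minus NB4, was tested for 9 members with limma over all 10 libraries, and 14 of 7248 genes were called (0.193%). The fit used a common variance per gene for both lines, although their values differ in unit, so its intervals do not carry each line's own spread. BCL2 had a difference of -0.32 (95% interval -0.66 to 0.03, adjusted p = 0.474), from -0.18 in Kasumi-1 and 0.13 in NB4. MCL1 had -0.05 (-0.30 to 0.19, adjusted p = 0.892), the narrowest interval. BAD and BBC3 entered this test only through their NB4 levels, and their Kasumi-1 values near 1 FPKM or below are compressed on log2(value + 1). Their differences were -0.38 (-0.77 to 0.002, adjusted p = 0.430) for BAD and 0.41 (-0.10 to 0.91, adjusted p = 0.519) for BBC3. With a pseudocount of 0.1 they became -0.49 for BAD and 0.67 for BBC3, and neither is read as a difference between the lines. These intervals leave room for differences of the size seen, so the test does not show that the lines responded alike.

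The NB4 values are listed per transcript, so forms of a gene with opposite roles are given apart. How reads were assigned to overlapping transcripts is not given in the sources used here. The accuracy of that assignment was not tested. On the log2 scale, libraries of the same group correlated at 0.942 to 0.943 over transcripts and at 0.990 to 0.991 over genes. Of the 78 transcripts, 37 are annotated as coding with the BH3 core, 21 as coding without it and 20 as not coding. A mean of 1 TPM or more in either group was reached by 50. With limma, 0 of 51643 transcripts in NB4 were called for level (0.0%), with 3469 at an unadjusted p under 0.05 (6.72%), and 2 of the 48 member transcripts tested were among those. For a transcript's share of its gene, 0 of 31826 were called (0.0%), with 1674 at an unadjusted p under 0.05 (5.26%), and 2 of the 37 member transcripts tested were among those.

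**Figure D4:**
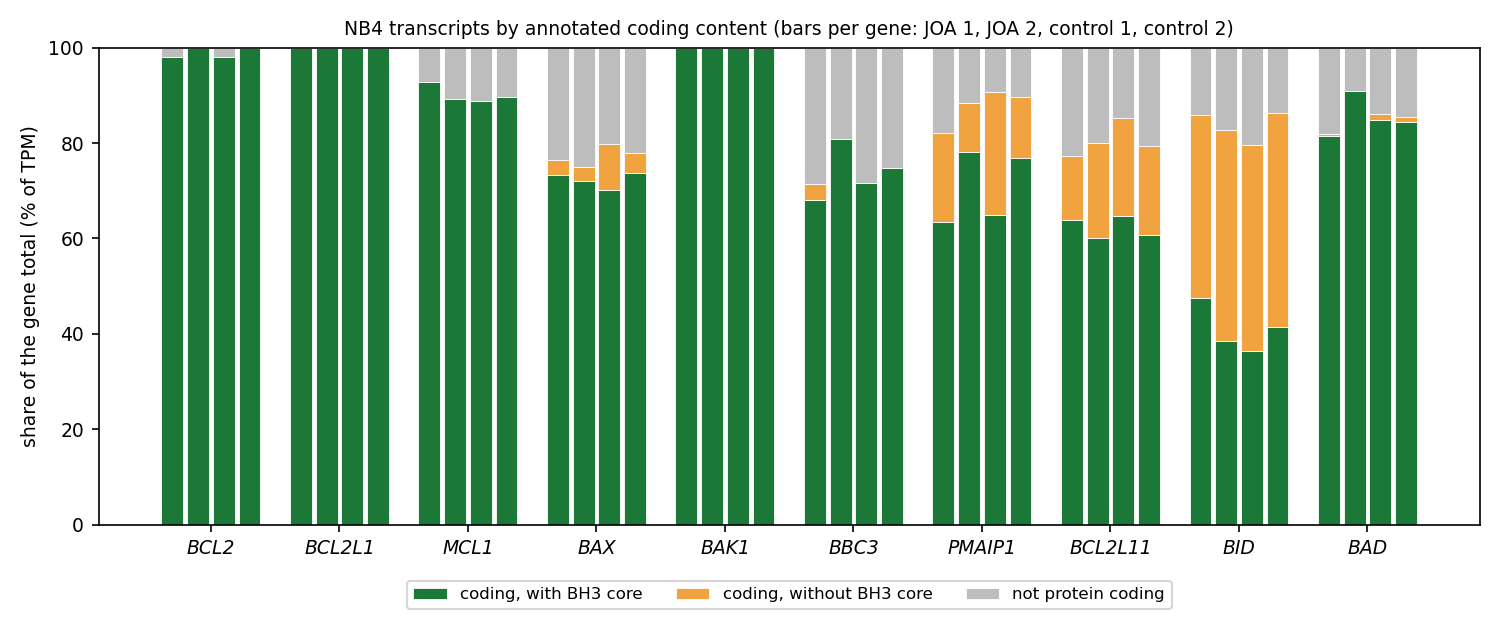
Share of each gene's TPM in NB4 held by coding transcripts with the BH3 core, coding transcripts without it and transcripts not annotated as coding, with bars in the order JOA 1, JOA 2, control 1, control 2. BCL2L1 and BAK1 are wholly in the first class, and BID has the largest second class, at 38.5 to 44.4% with JOA and 43.2 to 44.7% in control.

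For 4 genes, 2 transcripts are set side by side, because the point at which their coding sequences part decides which form keeps the core. Lower-case letters are the last 20 coding bases that both forms share and capitals the first 25 bases of each form's own coding sequence, from the GENCODE transcripts of GRCh38.
MCL1-202: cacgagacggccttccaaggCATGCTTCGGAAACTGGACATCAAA
MCL1-201: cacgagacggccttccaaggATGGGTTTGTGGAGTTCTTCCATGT
BCL2L1-201: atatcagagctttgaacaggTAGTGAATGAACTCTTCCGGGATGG
BCL2L1-202: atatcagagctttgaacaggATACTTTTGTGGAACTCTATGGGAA
BID-209: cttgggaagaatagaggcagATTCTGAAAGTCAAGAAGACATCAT
BID-214: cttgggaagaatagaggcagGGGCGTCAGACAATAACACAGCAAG
PMAIP1-202: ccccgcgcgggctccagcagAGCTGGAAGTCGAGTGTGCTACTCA
PMAIP1-201: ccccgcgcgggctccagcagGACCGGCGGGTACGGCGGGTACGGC

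In MCL1 the forms part after coding base 689 and the core of MCL1-202 starts at coding base 637, so both keep it. In BCL2L1 they part after base 376 with the core at base 268, and both keep it as well. In BID they part after base 223, before the core of BID-209 at base 268. In PMAIP1 they part after base 58, before the core of PMAIP1-202 at base 85, and neither BID-214 nor PMAIP1-201 holds the core. A transcript was counted as holding it where the core bases of its gene, from the leucine to the aspartate codon above, stood in its coding frame. BID-214 has 1 match to the loose pattern at another place, and PMAIP1-201 has 0. By gene, the transcripts shown lie within chr1:150574556-150579590 (MCL1), chr20:31664452-31722898 (BCL2L1), chr22:17735552-17774665 (BID) and chr18:59899948-59904306 (PMAIP1).

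MCL1-202, which codes for the full protein of 350 residues, had 58.1 and 59.2 TPM with JOA and 54.9 and 48.8 TPM in control, or 82.4% of the MCL1 total with JOA and 81.2% in control. The JOA libraries were above control, as were 24.5% of all transcripts tested. MCL1-201, the short form of 271 residues that lacks the membrane anchor and promotes death when overexpressed, had 3.16 and 2.26 TPM with JOA and 4.64 and 3.20 TPM in control. As a percentage of both forms it was 5.16 and 3.68% with JOA and 7.80 and 6.16% in control. Both JOA libraries of the short form were below both controls, as in 13.2% of all transcripts tested, with JOA library 1 just under control library 2. Its level difference of -0.40 (SE 0.28) had an unadjusted p of 0.204 and an adjusted p of 0.811 with limma. MCL1-203, which is not coding, took 8.99% of the total with JOA and 10.7% in control.

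BCL2L1-201, which codes for BCL-XL with 233 residues, had 12.3 and 12.5 TPM with JOA and 10.97 and 11.1 TPM in control. The death-promoting short form BCL-XS (BCL2L1-202, 170 residues) had 0.871 and 0.462 TPM with JOA and 0.180 and 0.708 TPM in control. The long form held 50.5% of the gene with JOA and 53.7% in control, and the short form stayed under 1 TPM in every library and was too low to be tested. BCL2L1-205, an incomplete annotated coding sequence, had 2.78 and 5.48 TPM with JOA and 2.72 and 2.66 TPM in control, with JOA library 2 as the high one. For BCL2, the 2 transcripts that code for 239 residues together made up nearly all of the gene: BCL2-202 took 83.7% with JOA and 79.4% in control, and BCL2-201 took 12.1% with JOA and 15.8% in control.

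BAX-202, which codes for the main form of BAX, had 36.5 and 26.4 TPM with JOA and 26.7 and 33.5 TPM in control, and BAX-201, with 218 residues, had 17.5 and 18.7 TPM with JOA and 17.7 and 20.8 TPM in control. Neither separated the groups. BAX-203, a shorter coding form of 143 residues without the core, had 1.096 and 0.567 TPM with JOA and 3.65 and 2.43 TPM in control. Both JOA libraries were below both controls, and the level difference was -1.14 (SE 0.31, unadjusted p = 0.0151, adjusted p = 0.731 with limma). In BAX, the coding class without the core held 3.22 and 2.98% of the gene with JOA and 9.71 and 4.15% in control. Groups did not overlap for 37.6% of all transcripts tested.

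All transcripts of BAK1 measured above 0 code for proteins with the core. BAK1-202, the full form of 211 residues, had 18.9 and 19.7 TPM with JOA and 15.6 and 22.5 TPM in control. BAK1-203, of 153 residues, had 5.08 and 5.22 TPM with JOA and 8.09 and 6.97 TPM in control. The shorter form was lower in both JOA libraries, with a level difference of -0.47 (SE 0.19, unadjusted p = 0.0544, adjusted p = 0.741 with limma).

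In BID, the most abundant transcript does not code for the BH3 core. BID-214, annotated with 122 residues, had 49.9 and 43.6 TPM with JOA and 42.5 and 57.6 TPM in control. BID-209, the full form of 195 residues, had 43.4 and 34.1 TPM with JOA and 21.4 and 39.96 TPM in control. The coding class with the core held 47.4 and 38.4% of BID with JOA and 36.3 and 41.5% in control. Control library 1 had the lowest share of full-length BID and also the lowest BID total, and the groups overlapped in every class.

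PMAIP1-202, which codes for NOXA with 54 residues, had 13.6 and 14.6 TPM with JOA and 12.7 and 10.9 TPM in control, or 70.8% of the gene with JOA and 70.9% in control. PMAIP1-201, without the core, had 3.99 and 1.92 TPM with JOA and 5.05 and 1.81 TPM in control. Library 1 was the high one in both groups. PMAIP1-203, a retained intron form, had 3.83 and 2.16 TPM with JOA and 1.81 and 1.46 TPM in control, and its share of 14.7% with JOA and 9.79% in control had an unadjusted p of 0.162.

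BCL2L11-206, of 198 residues, is the longest form of BIM and held 41.0% of the gene with JOA and 35.1% in control. It had 6.74 and 5.98 TPM with JOA and 4.51 and 5.53 TPM in control, a difference that had an adjusted p of 0.812 with limma. BCL2L11-204, annotated as a target of nonsense-mediated decay and without the core, had 1.95 and 1.19 TPM with JOA and 0.529 and 0.603 TPM in control. Its share was 10.1% with JOA and 3.96% in control, higher by 6.19 points (unadjusted p = 0.0452, adjusted p = 0.940 with limma). BCL2L11-216 held 11.2% of the gene with JOA and 13.7% in control, and BCL2L11-220 held 12.8% with JOA and 10.4% in control.

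BAD-205 had the lowest unadjusted p of the member transcripts. It had 13.9 and 10.2 TPM with JOA and 6.22 and 5.32 TPM in control, while BAD-201, which codes for the full protein of 168 residues, had 20.6 and 19.99 TPM with JOA and 20.4 and 18.9 TPM in control. BAD-205 separated the groups, and BAD-201 did not. BAD-205 differed by 0.94 on the log2 scale (SE 0.22, unadjusted p = 0.00755, adjusted p = 0.731 with limma). Its share of the gene was 28.7% with JOA and 16.6% in control, higher by 12.01 points (unadjusted p = 0.0109, adjusted p = 0.907 with limma). Its annotated coding sequence is incomplete, with 64 residues that include the core. BAD-206, a retained intron form, had 8.43 and 3.37 TPM with JOA and 5.002 and 4.85 TPM in control.

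BBC3 was split unevenly between libraries. BBC3-202, of 131 residues, had 10.5 and 11.04 TPM with JOA and 2.69 and 14.2 TPM in control, and BBC3-203, of 193 residues, had 3.00 and 0.666 TPM with JOA and 10.2 and 2.20 TPM in control. Control library 1 was mostly the longer form and the other 3 libraries mostly the shorter. As a percentage of both forms, BBC3-203 was 22.2 and 5.69% with JOA and 79.2 and 13.4% in control, so the control libraries differed from each other more than the groups did.

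**Figure D5:**
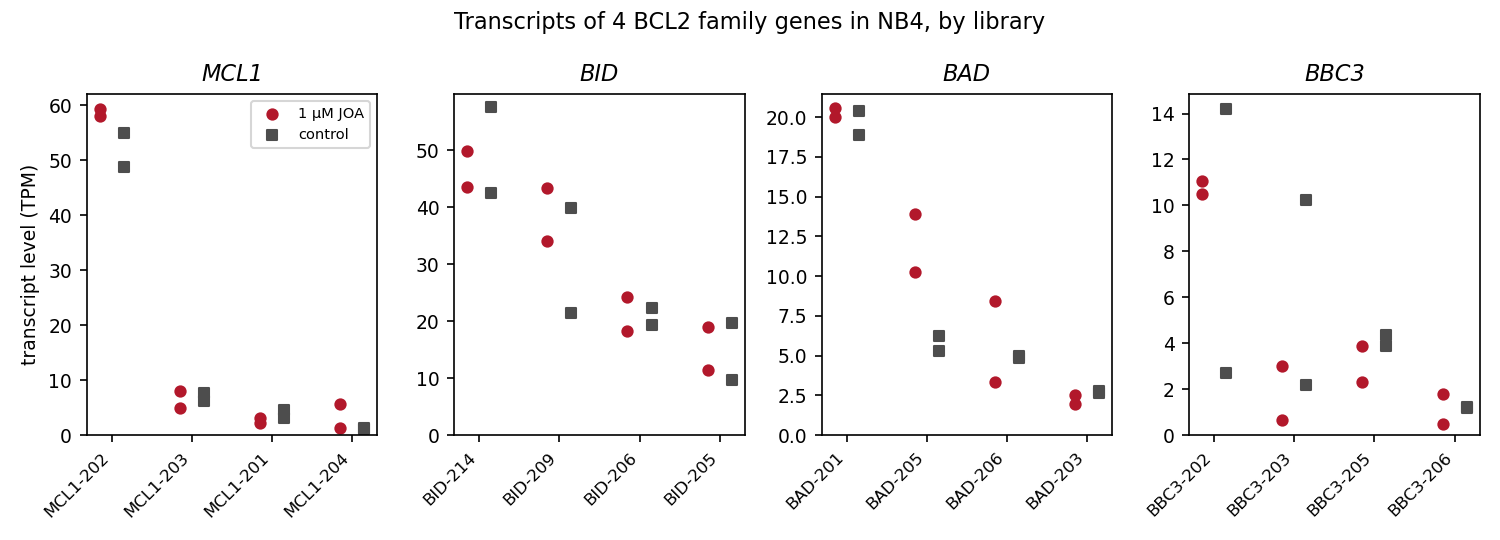
TPM of the leading transcripts of MCL1, BID, BAD and BBC3 in each NB4 library, with JOA as red circles left of control as grey squares. BAD-205 separates the groups, at 10.2 and 13.9 TPM with JOA and 5.32 and 6.22 TPM in control, while BBC3-202 and BBC3-203 differ most between the 2 control libraries.

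Genes that act with the family were listed by role and followed in the same fits. In the paired Kasumi-1 fit, 1 of 8 tested members of the apoptosome and caspase list rose and 1 fell. Over the 7 lists 3 of 38 tested genes were called (7.89%), near the 8.14% of all features. APAF1, the scaffold on which cytochrome c activates caspase-9, had 10.2, 10.5 and 14.3 FPKM with JOA and 8.43, 8.72 and 11.3 FPKM in control. It was higher with JOA in 3 of 3 pairs, by 0.27 on the log2 scale (SE 0.04, adjusted p = 0.0363 with limma), although the groups overlapped through library 3. CYCS, which encodes cytochrome c itself, had 41.4, 44.1 and 42.2 FPKM with JOA and 49.6, 52.1 and 48.0 FPKM in control. Every JOA library was below every control library, and CYCS fell by 0.22 (SE 0.04, adjusted p = 0.0363 with limma). STAT5B, a factor that drives BCL2L1 transcription downstream of cytokine receptors, rose by 0.22 (SE 0.04, adjusted p = 0.0396 with limma) as 1 of 8 tested factors upstream of the family. Without pairs the adjusted p was 0.426 for APAF1, 0.150 for CYCS and 0.414 for STAT5B. With pairs but leaving out 1 pair at a time, it ran from 0.0941 to 0.136 for APAF1 and from 0.0966 to 0.145 for CYCS. For STAT5B it ran from 0.111 to 0.157. These fits called 0 of 12268 features without replicate 1, 0 of 12239 without replicate 2 and 0 of 12181 without replicate 3. The loss of the calls is therefore not particular to these 3 genes. With pairs and median-ratio scaling the adjusted p was 0.0616 for STAT5B with limma. On recovered reads with pairs, all 3 were called by limma's voom whichever pair was left out, with adjusted p up to 0.0172. With 1 pair left out, few libraries remain to estimate the spread, which then leans on that of other features. The calls without a pair are therefore not read as support. In NB4, APAF1 had 20.7 and 27.8 TPM with JOA and 16.9 and 15.97 TPM in control (difference 0.52, adjusted p = 0.364 with limma), and CYCS had 202 and 222 TPM with JOA and 198 and 228 TPM in control.

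The other lists held no call in the Kasumi-1 fit with pairs. That covers 6 tested genes of the wider BCL2 family, 4 inhibitors of apoptosis, 4 genes of the death receptor arm, 3 partners in the outer membrane and 5 genes of MCL1 turnover. On recovered reads with pairs, BMF, CASP8, FOXO1 and STAT5A were called higher and BIK, BIRC5 and MTCH2 lower, named here after their values were seen. With APAF1, CYCS and STAT5B these made 10 of 41 tested list genes (24.4%), near the 21.7% of all features. The most abundant genes of the lists were BCL2L12, an atypical family relative, at 15.3 FPKM with JOA and 14.96 FPKM in control, and BIRC5 (survivin) at 32.1 FPKM with JOA and 36.1 FPKM in control. TNFRSF1A, the main TNF receptor, averaged 51.3 FPKM with JOA and 53.0 FPKM in control. VDAC1, the channel of the outer membrane, averaged 112 FPKM with JOA and 118 FPKM in control. HUWE1, a ubiquitin ligase of MCL1, averaged 50.3 FPKM with JOA and 51.2 FPKM in control, and the stress factor ATF4 averaged 140.1 FPKM with JOA and 139 FPKM in control.

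In NB4 the fit alone called no gene of these lists. A fit that shared its variance with Kasumi-1 called 155 of 7248 genes (2.14%), with no member among the 9 tested. Over the 7 lists it called 3 of 44 tested genes (6.82%). These were 2 of 6 tested genes of the death receptor arm as higher and 1 of 6 inhibitors of apoptosis as lower. CASP8, the protease that cuts BID, had 44.3 and 46.8 TPM with JOA and 32.3 and 28.7 TPM in control. Its difference was 0.57 on the log2 scale (SE 0.11, adjusted p = 0.0330 with limma in this shared fit). The variance behind the CASP8 call draws on Kasumi-1 libraries too, where CASP8 lay at 4.57 to 6.48 FPKM, and NB4 alone did not call it. FAS, a death receptor, had 11.6 and 11.9 TPM with JOA and 8.34 and 7.96 TPM in control, with a difference of 0.48 (SE 0.11, adjusted p = 0.0477 with limma). The variance behind the FAS call also draws on Kasumi-1 libraries, where FAS lay at 0.027 to 0.085 FPKM and log2(value + 1) hardly varies, so the call is not read as a change. BIRC3, an inhibitor of apoptosis induced by NF-kB, had 0.753 and 0.986 TPM with JOA and 1.77 and 1.60 TPM in control (difference -0.52, adjusted p = 0.0422 with limma). It reached 1 TPM in control libraries alone and was at 0.044 FPKM or less in Kasumi-1, so this call is not read as a change either. NB4 alone gave these genes adjusted p-values of 0.214 for CASP8, 0.371 for FAS and 0.507 for BIRC3.

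CASP8 had 5.40, 6.48 and 5.47 FPKM in JOA libraries of Kasumi-1 and 4.57, 5.25 and 4.98 FPKM in control libraries, higher with JOA in 3 of 3 pairs (difference 0.19, adjusted p = 0.0890 with limma in the paired fit). FAS and BIRC3 were below 0.1 FPKM in every Kasumi-1 library and were not tested there. The most abundant genes of the lists in NB4 were BCL2L12, CYCS, BIRC5, TNFRSF1A, VDAC2, HUWE1 and ATF4. BCL2L12 averaged 126 TPM with JOA and 114 TPM in control, and VDAC2, which holds BAK1 at the membrane, averaged 267 TPM with JOA and 231 TPM in control.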

How the data were processed

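The Kasumi-1 table holds FPKM values that the authors deposited, and the NB4 table, also named for FPKM, holds deposited values that sum to just under 1000000 per library and were taken as TPM; the fit planned for FPKM was applied to them. Per the submitters' processing notes, Trimmomatic, HISAT2, Cufflinks, HTSeq and hg38 were used, with roles and versions not given in the sources used here. Of 29053 Kasumi-1 rows, 10899 (37.5%) were matched to symbols, and 3 rows without a record were left out. GENCODE held 93.9% of the 121005 NB4 transcripts, whose values were added up per gene.

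Tests used limma 3.58.1 in R 4.3.3, with tables read in Python 3.11.15, on each line alone and on log2(value + 1) with a variance trend, on features at 1 or more in as many libraries as the smaller group. This scale understates changes of low genes. Isoform shares were tested for genes at 5 TPM or more and shares of 5 to 95%. Reads were recovered where all values of a row were whole to within 0.001 of a read (100% of 22692 rows above 0 in 3 or more libraries) and tested with voom at 10 reads or more. Same-numbered Kasumi-1 libraries deviated together from their group means (correlations 0.330, 0.500 and 0.424), so the numbers were taken as pairs from the data, not from a label. Differently numbered libraries had -0.0611 or below, which the subtraction of group means forces in part. Replicates shared 0.0% of identical values. The scripts were tested on simulated data. The members, gene lists and the rule for naming genes (all members, called list genes and the highest gene per list and line, transcripts holding 10% or more of a gene) were chosen with earlier results of these data known.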

Additional observations from a re-analysis of the deposited data

How the results depend on the processing

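Counts of called genes depended on pairing and on the variance estimate. In Kasumi-1 the replicate block raised the count to 985 from 0, 957 with the block and median-ratio scaling, 3154 with the block on recovered reads, and 1692, 2883 and 2100 there without replicate 1, 2 and 3. On FPKM the block called 0 without replicate 1, 0 without replicate 2 and 0 without replicate 3. Block fits without a replicate estimate the spread from few libraries and lean on that of other features. Leaving out 1 library without pairs gave 0 to 1. The count of members called was 0, and 1 (BCL2) with the block on recovered reads, also without replicate 2. APAF1, CYCS and STAT5B lost their call in the block on FPKM when any pair was left out, as did every other feature called there. In NB4 the count of 1 became 0 with a pseudocount of 0.1, without a filter, with median-ratio scaling and without any 1 library (0 to 0). It became 146 with the replicate block, 155 with variance shared over both lines and 13 for protein-coding transcripts alone. In NB4 the replicate number is only a number (correlation 0.0652), and the block called no member. Leaving out an NB4 library leaves 1 sample in a group, assumed to vary like the other group. The 14 calls of the difference between lines became 2 with a pseudocount of 0.1, 36 without a filter, 36 with the replicate block, 1 after rescaling to 1000000, and 2 to 109 without 1 library.

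Signs turned for some members, none of them called. In Kasumi-1 median-ratio scaling, with and without the block, gave -0.015 for BCL2L1, -0.011 for BAK1 and -0.0090 for BCL2L11, and rescaling gave 0.0027 for PMAIP1. In the block without replicate 3, BCL2L1 was -0.033, and -0.038 on reads. In the block without replicate 2, BAK1 was -0.023 and -0.026 on reads, and PMAIP1 0.10 and 0.11 on reads. Leaving out 1 library ranged BCL2L1 from -0.029 to 0.087, PMAIP1 from -0.12 to 0.050 and BCL2L11 from -0.063 to 0.13. In NB4 it ranged BCL2 from -0.036 to 0.30, BAX from -0.13 to 0.10, BAK1 from -0.26 to 0.042 and BID from -0.029 to 0.35. Without a turn of sign it ranged PMAIP1 from 0.033 to 0.47, BCL2L1 from 0.093 to 0.41, BAD from 0.10 to 0.42 and BBC3 from -0.43 to -0.0041. For the difference between lines, MCL1 was 0.00059 with median-ratio scaling and ranged from -0.15 to 0.045, BAK1 from -0.0041 to 0.30 and BCL2L11 from -0.17 to 0.023. The cause of these shifts was not tested. The unknown depth of NB4 and 2 libraries per group limit what its fits can show.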
